A study of Mus musculus with 12 samples.

Results

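Chemokine ligands are small secreted proteins that direct the movement of leukocytes. The 10 ligands described here are Ccl2, Ccl3, Ccl4, Ccl5, Ccl6, Ccl7, Ccl9, Ccl12, Cxcl10 and Cxcl14. They were chosen by name as ligands that macrophages make, with earlier results of these data known. Their counts beside the shares of all genes are therefore a description. They are 10 of the 24421 genes listed in every file, and each was found in all 12 libraries. The 8 CC ligands lie on mouse chromosome 11, Cxcl10 on chromosome 5 and Cxcl14 on chromosome 13. In GRCm38 coordinates of GENCODE vM21, Ccl2 (chr11:82035571-82037453), Ccl7 (chr11:82045712-82047525) and Ccl12 (chr11:82101845-82103400) form a first cluster on the plus strand. A further cluster holds Ccl5 (chr11:83525778-83530518), Ccl9 (chr11:83572919-83578636), Ccl6 (chr11:83587882-83593087) and Ccl3 (chr11:83647844-83649355) on the minus strand and Ccl4 (chr11:83662584-83664683) on the plus strand. Cxcl10 (chr5:92346638-92348889) and Cxcl14 (chr13:56288643-56296551) are on the minus strand.

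Chemokines act through G protein-coupled receptors on the surface of the responding cell. Ccl2, Ccl7 and Ccl12 bind Ccr2, which brings monocytes out of the bone marrow. Ccl3, Ccl5, Ccl6 and Ccl9 bind Ccr1, and Ccl4 is an inflammatory chemokine closely related to Ccl3. Cxcl10 binds Cxcr3 on T and NK cells and is a classical interferon-inducible gene. Macrophages both make these ligands and carry several of the receptors, and osteoclasts, the bone-resorbing cells, form by fusion of precursors of the same lineage.

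RNA-seq was performed on bone marrow-derived macrophages (BMMs) of mice described as C57BL/6. The cells were grown for 3 days in M-CSF, the growth factor that sustains macrophages. RANKL, the cytokine that drives osteoclast differentiation, was given for 5 days or not at all (basal). By the methods, M-CSF stayed in the medium during RANKL. The paper describes 5 days either with RANKL or without it for the loss of function cells. A part of time in culture in the changes with RANKL was not tested. All groups carried LysMcre, a Cre recombinase under the myeloid lysozyme M promoter. In the loss of function experiment WT cells were Mir182+/+LysMcre(+) and Mir182ΔM/ΔM cells were Mir182flox/floxLysMcre(+), each basal and with RANKL. In the gain of function experiment Control cells were LysMcre(+) and Mir182mTg cells were LSL-Mir182LysMcre(+), in which Cre removes a STOP cassette before a Mir182 copy in the Rosa26 locus, and both were basal. Each of the 6 groups had 2 replicates, called biological by the methods, and it is not given whether they came from separate animals. If they did not, the p-values measure only the spread between these samples, which may be technical. The age and sex of the mice in these libraries were not given in the sources used here. The comparisons ask how the ligands change with RANKL, with loss of miR-182 and with added miR-182.

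Between 24951280 and 33050619 reads per library were counted on genes, so a level of 3 reads equals 0.0908 to 0.120 CPM (counts scaled to a total of 1000000 reads on genes). The 2 WT RANKL libraries stood apart from the other 6 of their experiment although their genotype label is that of the WT basal libraries. Lyz2, the gene into which the LysMcre allele is inserted, had 4117 and 4288 CPM in WT RANKL and between 22.5 and 44.0 CPM in the other 6. Ifi202b, whose expression is known to differ between mouse strains, had 1.12 and 0.972 CPM in WT RANKL and between 82.1 and 152 CPM in the other 6. In the gain of function libraries Lyz2 was between 5783 and 7062 CPM and Ifi202b at or below 0.0908 CPM. By both genes WT RANKL was nearer to the gain of function libraries than WT basal and the Mir182ΔM/ΔM libraries were. The strain of the mice was not tested in any group. Whether WT RANKL came from other mice than WT basal was not tested, and it cannot be told apart from RANKL or genotype in any comparison that uses these libraries. The fold changes of Mir182ΔM/ΔM RANKL against Mir182ΔM/ΔM basal and of Mir182ΔM/ΔM basal against WT basal do not use them. Their SE and p-values do, because the spread was estimated in a fit of all 8 loss of function libraries. Mir182 had 0 or 1 read in the 8 loss of function libraries, so it does not check the deletion. It had 0 reads in both Control libraries and 79 and 123 reads in the Mir182mTg libraries.

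The 8 macrophage markers were all at or above 1 CPM in every group. Of 7 T and NK cell markers none reached 1 CPM in any group. Of 7 neutrophil markers 4 to 7 reached it, with a summed level between 7.19 and 117 CPM. These were lower after RANKL (21.9 and 22.2 CPM in WT, 7.19 and 7.36 CPM in Mir182ΔM/ΔM) than in the basal groups, and higher in Mir182mTg (107 and 117 CPM) than in Control (49.5 and 50.7 CPM). The 8 osteoclast markers summed to 9938 and 10270 CPM in WT RANKL, to 3070 and 3079 CPM in Mir182ΔM/ΔM RANKL and to at most 74.9 CPM in the basal groups. B cell markers summed to at most 3.67 CPM, dendritic cell markers to at most 4.25, mast cell and basophil markers to at most 0.24 and stromal markers to between 1.73 and 35.1 CPM. The 4 endothelial markers summed to 106 and 107 CPM in Mir182ΔM/ΔM RANKL and to at most 26.5 CPM elsewhere, nearly all of it Kdr, while Tek had at most 0.131 CPM. The part of any other cell type in the ligand results was not tested, and in bulk RNA fewer cells of a type and less RNA per cell cannot be told apart.

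The sequence of miR-182-5p and those of 2 promoters are shown because the groups differ in this miRNA and because Cxcl10 and Cxcl14 carried the changes that the text turns on. The mature miRNA lies at chr6:30165962-30165986 on the minus strand (GRCm38.p6, RefSeq). The capitals mark the seed of the miRNA, bases 2 to 8, which pairs with TTGCCAA in a target.
mmu-miR-182-5p: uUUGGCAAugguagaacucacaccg
In the GENCODE vM21 annotation all 10 ligands have a 3′ UTR, and 0 of 10 hold TTGCCAA, which 11.1% of 21685 genes hold. The shorter match to bases 2 to 7, TGCCAA, was found in Ccl3, Ccl9 and Cxcl10, and in 30.4% of all genes.

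RefSeq promoters (GRCm38.p6, 250 bases before to 50 after the start site) were on hand for Ccl3, Ccl6, Ccl9, Ccl12, Cxcl10 and Cxcl14. They were searched on both strands for 2 motifs: GAAA, any 2 bases and GAAA again (the core of an interferon response element), and GGGA, any 2 bases and TTCC (an NF-kB motif). The 2 promoters below lie on the minus strand, at chr5:92348840-92349139 for Cxcl10 and chr13:56296502-56296801 for Cxcl14, and capitals mark the matches.
Cxcl10: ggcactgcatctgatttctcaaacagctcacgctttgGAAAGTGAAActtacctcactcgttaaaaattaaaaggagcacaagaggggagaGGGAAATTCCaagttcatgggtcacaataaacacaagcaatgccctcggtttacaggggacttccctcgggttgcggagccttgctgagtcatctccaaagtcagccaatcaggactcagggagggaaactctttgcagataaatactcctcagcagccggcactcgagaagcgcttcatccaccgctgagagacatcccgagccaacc
Cxcl14: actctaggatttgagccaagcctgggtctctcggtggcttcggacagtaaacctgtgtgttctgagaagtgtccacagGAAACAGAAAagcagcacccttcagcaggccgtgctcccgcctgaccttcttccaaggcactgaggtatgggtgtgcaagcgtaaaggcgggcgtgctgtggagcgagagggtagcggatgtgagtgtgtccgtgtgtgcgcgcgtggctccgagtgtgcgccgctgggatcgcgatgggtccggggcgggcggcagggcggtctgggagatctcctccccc
In Cxcl10 the first motif, GAAAGTGAAA, began 213 bases before the start site and the second, GGGAAATTCC, 159 bases before it. In Cxcl14 only the first was found, as GAAACAGAAA, 172 bases before the start. The first motif is in 3.44% and the second in 1.47% of 32851 promoters, and neither was found in the windows of Ccl3, Ccl6, Ccl9 and Ccl12. These are matches of letters, not measured sites.

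**Figure D1:**
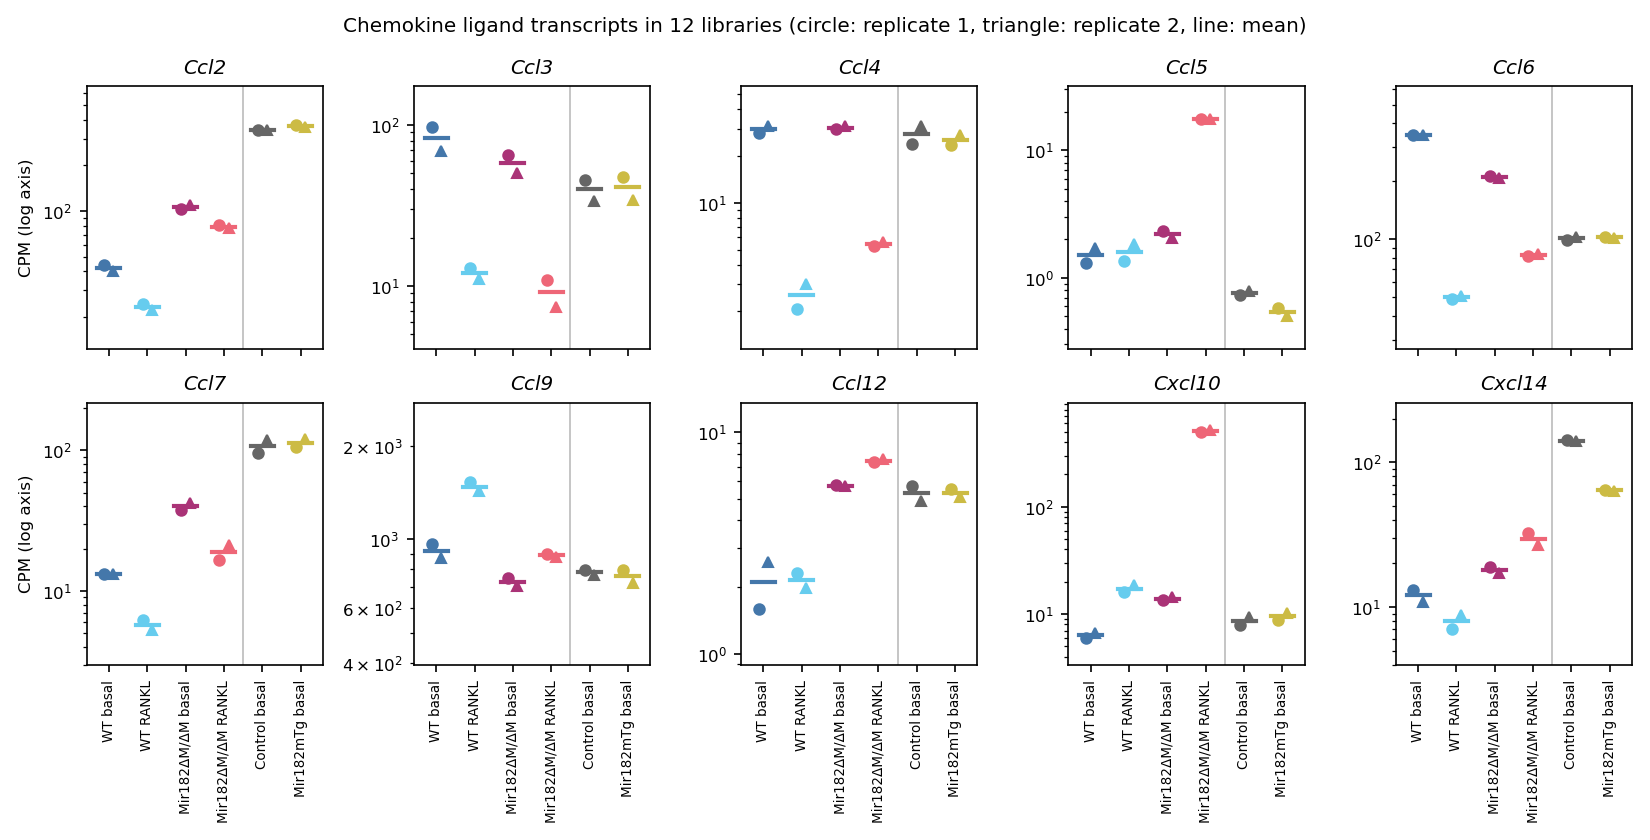
CPM on a log axis of each ligand in the 12 libraries. Circles are replicate 1, triangles replicate 2 and lines the mean of 2, with the gain of function groups right of the grey line. Cxcl10 and Ccl5 stand highest in Mir182ΔM/ΔM RANKL (507.6 and 17.7 CPM), Ccl9 in WT RANKL (1478 CPM) and Cxcl14 in Control (141 CPM).

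Ccl9 and Ccl6 made up most of the ligand transcripts of WT basal BMMs, and Cxcl10 took the first place in Mir182ΔM/ΔM cells with RANKL. To compare genes, CPM was divided by the transcript length in kb. Of the summed CPM per kb of the 10 ligands, Ccl9 held 39.3% and 38.5% in the WT basal replicates and Ccl6 held 29.5% and 32.0%. In WT RANKL, Ccl9 held 81.3% and 80.2% and no other ligand more than 5.97%. In Mir182ΔM/ΔM RANKL, Cxcl10 held 44.6% and 46.0% and Ccl9 held 29.4% and 28.5%. In Control and Mir182mTg, Ccl2 was first with between 39.3% and 42.6%, and Ccl9 second with at most 24.8%. The sum itself was 818 and 751 CPM per kb in WT basal, 623 and 593 in WT RANKL, 738 and 715 in Mir182ΔM/ΔM basal, and 1017 and 1021 in Mir182ΔM/ΔM RANKL. It was 1068 and 1085 in Control and 1078 and 1046 in Mir182mTg. The experiments were deposited as separate files, so levels are set beside each other across them as a description, with no test.

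**Figure D2:**
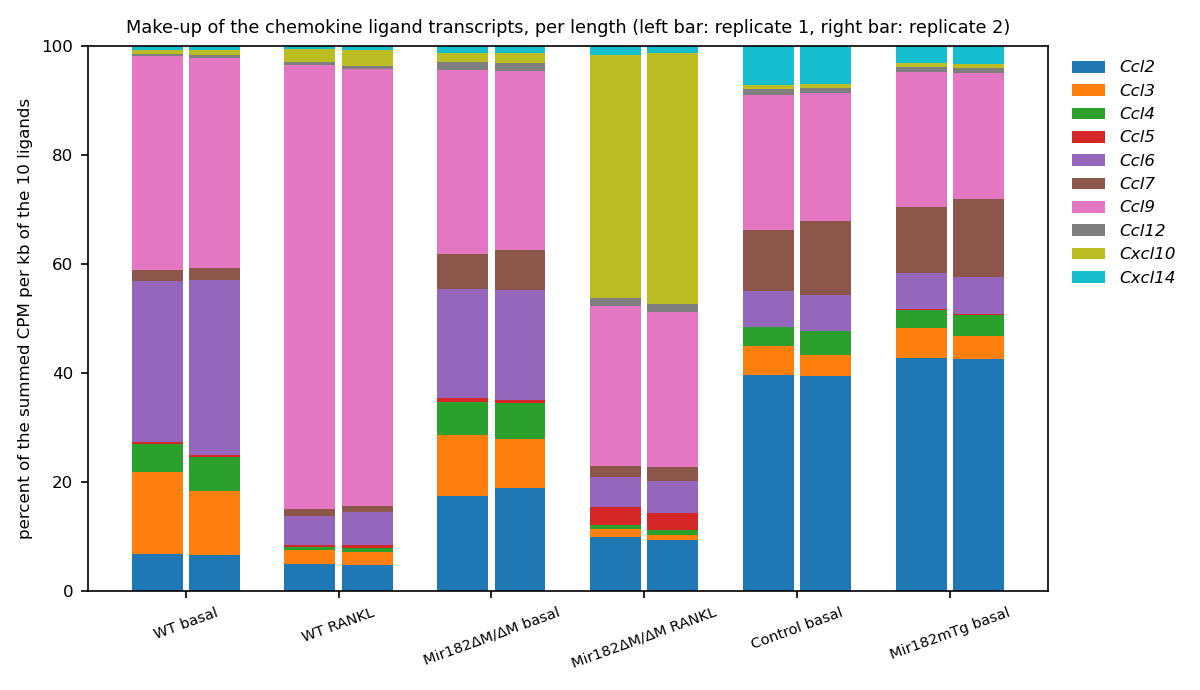
Share of each ligand, in percent of the summed CPM per kb of the 10 ligands, for replicate 1 (left bar) and replicate 2 (right bar) of each group. Ccl9 fills most of the bar in WT RANKL (81.3% and 80.2%), and Cxcl10 is the largest part in Mir182ΔM/ΔM RANKL (44.6% and 46.0%).

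After RANKL the ligands did not move as one group. In WT cells 8 of 10 passed the test (limma on log2(CPM + 1), Benjamini-Hochberg adjusted p under 0.05 over 11691 genes). Of these 2 were higher, where 40.6% of all genes tested were higher, and 6 were lower, where 22% were. In Mir182ΔM/ΔM cells 9 of 10 passed, with 4 higher against 30.4% of all genes and 5 lower against 26.4%. The median change of the 10 ligands was -0.69 on the log2 scale in WT and -0.07 in Mir182ΔM/ΔM, beside 0.19 and 0.05 for all genes. Between genotypes, 8 of 10 were higher and 1 lower in Mir182ΔM/ΔM RANKL than in WT RANKL, where 14.3% of all genes were higher and 30.9% lower. The median of the ligands was 1.49 and that of all genes -0.15. In the basal state 4 were higher and 1 lower in Mir182ΔM/ΔM than in WT, where 2.71% and 1.1% of all genes were. With the replicate number as a block, basal calls were 6 higher and 3 lower, against 18.6% and 12.7% of all genes. The response to RANKL differed between genotypes in 7 of 10, with 6 differences above 0 against 7.44% of all genes and 1 below 0 against 17.1%. In Mir182mTg against Control (edgeR quasi-likelihood test over 12081 genes) 1 of 10 was lower, where 0.157% of all genes were, and 0 were higher, where 0.0993% were. DESeq2 also called 0 of the 10 higher, where it called 61 of 12081 genes higher.

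The scaling moved the split of all genes in 3 comparisons. Of all genes that passed, 64.8% were higher in WT RANKL than in WT basal, and 48.6% with TMM factors, which scale libraries by a trimmed mean of ratios. The share was 31.6% and 50.8% for Mir182ΔM/ΔM RANKL against WT RANKL, and 30.3% and 49.3% for the difference of the responses. Relative to the median of all genes, Ccl9 changed by 0.50 and Cxcl10 by 1.12 in WT with RANKL, and Ccl9 by -0.59 and Cxcl10 by 4.95 in Mir182ΔM/ΔM RANKL against WT RANKL. With TMM factors every ligand kept the call of these 3 comparisons except Ccl9 in the difference of the responses (-0.23, adjusted p = 0.16 with limma).

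**Figure D3:**
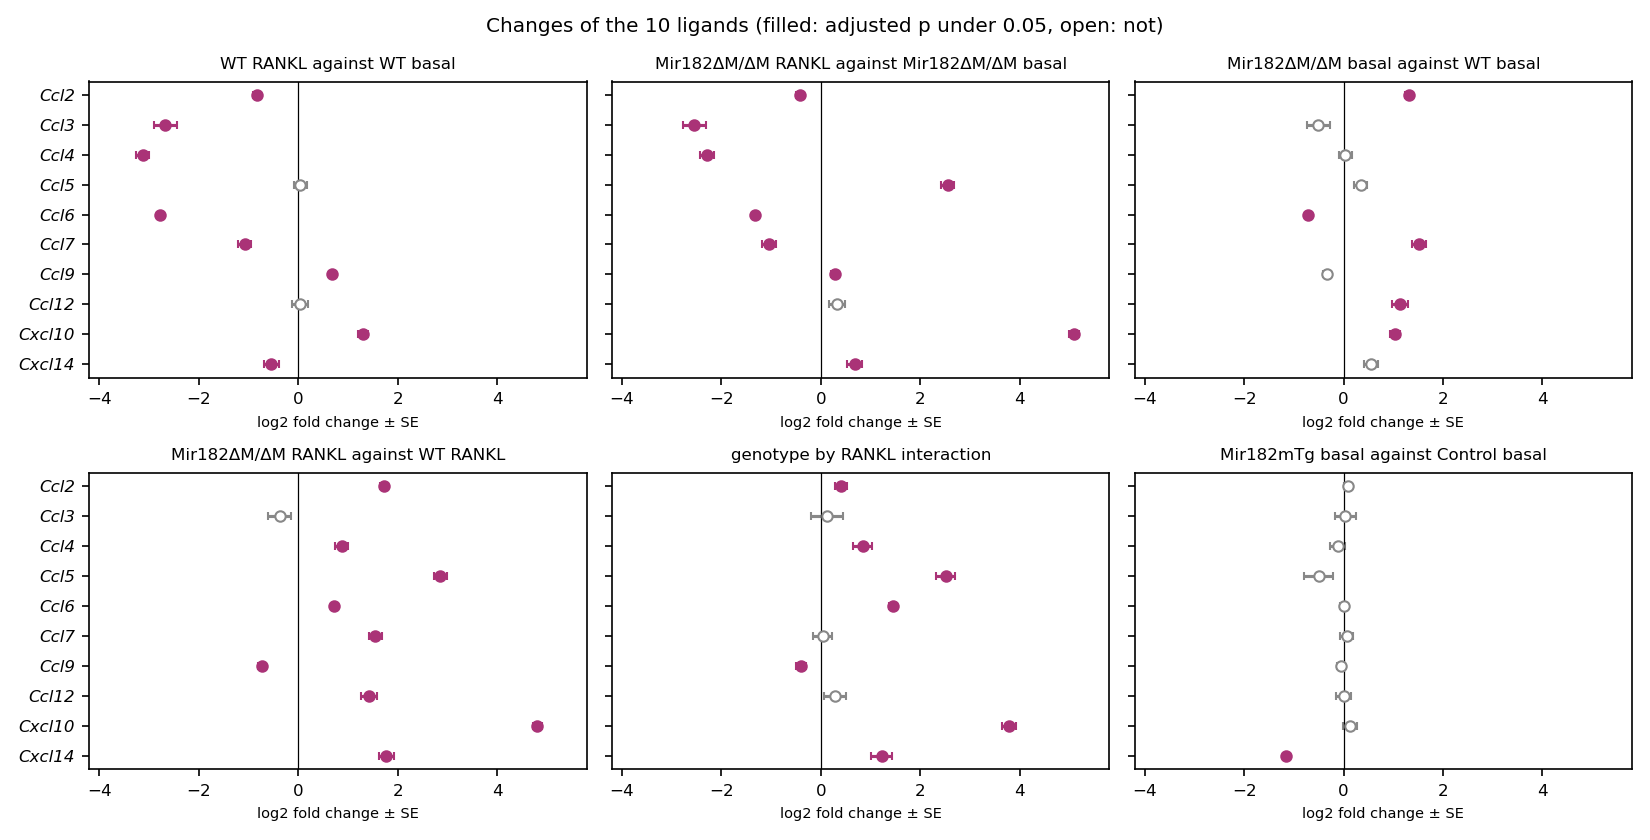
Log2 fold change with its standard error for each ligand in the 6 comparisons, each with 2 libraries a group. Filled points passed the test (adjusted p under 0.05) and open points did not. Cxcl10 lies farthest right in both comparisons with Mir182ΔM/ΔM RANKL (5.09 and 4.81), and Cxcl14 alone is filled in Mir182mTg against Control (-1.16).

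Cxcl10, the interferon-inducible ligand of Cxcr3, showed the largest change of the 10 ligands in Mir182ΔM/ΔM cells with RANKL. It had 5.96 and 6.69 CPM in WT basal, 15.9 and 18.5 CPM in WT RANKL, and 13.4 and 14.5 CPM in Mir182ΔM/ΔM basal. In Mir182ΔM/ΔM RANKL it had 499 and 517 CPM, or 508 ± 12.6 CPM (SD, n = 2), far above every other library. It rose 2.71-fold with RANKL in WT (log2 1.31 ± 0.10 SE, adjusted p = 2.8e-05, limma) and 36.4-fold in Mir182ΔM/ΔM (5.09 ± 0.10, adjusted p = 1.8e-07). Within replicate 1 the rise in Mir182ΔM/ΔM was 37.1-fold and within replicate 2 it was 35.7-fold. Between genotypes the level with RANKL was 29.6-fold higher in Mir182ΔM/ΔM (4.81 ± 0.10, adjusted p = 3.5e-07), and in the basal state 2.21-fold higher (1.03 ± 0.10, adjusted p = 0.003). The responses differed by 3.78 ± 0.14 (adjusted p = 1.9e-05). Control had 7.92 and 9.33 CPM and Mir182mTg 8.84 and 10.2 CPM, which overlap. Art3, a gene on the other strand that overlaps Cxcl10 in the annotation, had at most 7 reads in any library.

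Ccl5, a ligand of Ccr1 that draws T cells and monocytes, was low in 5 of the 6 groups. It had 1.31 and 1.72 CPM in WT basal, 1.36 and 1.84 in WT RANKL and 2.33 and 2.05 in Mir182ΔM/ΔM basal. In Mir182ΔM/ΔM RANKL it had 17.7 CPM in both replicates. It rose 8.08-fold with RANKL in Mir182ΔM/ΔM (log2 2.55 ± 0.13, adjusted p = 5.8e-06, limma) and its change in WT was 0.04 ± 0.13 (adjusted p = 0.80), a value that turned negative with TMM factors (-0.08). The responses differed by 2.51 ± 0.19 (adjusted p = 1.7e-04). In Mir182ΔM/ΔM RANKL it was 11.1-fold higher than in WT RANKL (2.85 ± 0.13, adjusted p = 7.9e-06). The basal genotypes differed by 0.34 ± 0.13, with adjusted p = 0.25 without the replicate block and 0.035 with it by limma. With edgeR on recovered reads and the block it did not pass (adjusted p = 0.064). Control had 0.734 and 0.794 CPM and Mir182mTg 0.575 and 0.501 CPM.

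The ligands of Ccr2 were higher in Mir182ΔM/ΔM cells than in WT cells both with and without RANKL. Ccl2, the main monocyte attractant of this group, had 44.4 and 40.0 CPM in WT basal and 24.3 and 22.4 CPM in WT RANKL. It had 103 and 109 CPM in Mir182ΔM/ΔM basal and 81.0 and 76.7 CPM in Mir182ΔM/ΔM RANKL, so no Mir182ΔM/ΔM library overlapped a WT library. It was 2.51-fold higher in Mir182ΔM/ΔM in the basal state (log2 1.31 ± 0.08, adjusted p = 5.7e-04, limma) and 3.38-fold higher with RANKL (1.72 ± 0.08, adjusted p = 9.4e-06). It fell with RANKL by 0.83 ± 0.08 in WT and by 0.42 ± 0.08 in Mir182ΔM/ΔM on the log2 scale (adjusted p = 1.1e-04 and 0.0038). These falls differed by 0.41 ± 0.12 (adjusted p = 0.043). That call was lost when any 1 library other than WT basal replicate 2 was left out, with adjusted p between 0.061 and 0.14.

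Ccl7, another ligand of Ccr2, followed Ccl2 at lower levels. It had 13.3 CPM in both WT basal replicates, 6.22 and 5.33 CPM in WT RANKL, 37.8 and 42.0 CPM in Mir182ΔM/ΔM basal and 16.5 and 21.4 CPM in Mir182ΔM/ΔM RANKL. Each Mir182ΔM/ΔM library lay above the WT libraries of its condition. It was 3.00-fold higher in Mir182ΔM/ΔM in the basal state (log2 1.51 ± 0.14, adjusted p = 0.0024, limma) and 3.28-fold higher with RANKL (1.55 ± 0.14, adjusted p = 1.3e-04). It fell with RANKL by 1.08 ± 0.14 in WT and by 1.04 ± 0.14 in Mir182ΔM/ΔM (adjusted p = 3.8e-04 and 5.4e-04). The difference of the responses was 0.04 ± 0.19 (adjusted p = 0.92).

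Ccl12, also a ligand of Ccr2, was the lowest of the 3. It had 1.59 and 2.61 CPM in WT basal, 2.31 and 1.98 CPM in WT RANKL, 5.77 and 5.71 CPM in Mir182ΔM/ΔM basal and 7.32 and 7.55 CPM in Mir182ΔM/ΔM RANKL. The WT groups overlapped each other and both Mir182ΔM/ΔM groups lay above them. It was 3.47-fold higher in Mir182ΔM/ΔM with RANKL (log2 1.43 ± 0.16, adjusted p = 3.9e-04, limma) and 2.74-fold higher in the basal state (1.14 ± 0.16, adjusted p = 0.012). The basal call was lost without Mir182ΔM/ΔM basal replicate 1 or replicate 2 (adjusted p = 0.094 and 0.088). Its change with RANKL was 0.04 ± 0.16 in WT, which turned negative with TMM factors (-0.10), and 0.32 ± 0.16 in Mir182ΔM/ΔM (adjusted p = 0.84 and 0.12). In Mir182ΔM/ΔM it passed as higher with the replicate block (adjusted p = 0.029), under which 42.7% of all genes did, but not with TMM factors and the block together (adjusted p = 0.056). It also passed without WT basal replicate 1 or replicate 2 (adjusted p = 0.038 for each).

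In the gain of function experiment the Ccr2 ligands stood at other levels than in the WT basal cells. Ccl2 had 340.1 and 343 CPM in Control and 370 and 358 CPM in Mir182mTg. Ccl7 had 96.1 and 118 CPM in Control and 105 and 121 CPM in Mir182mTg. Ccl12 had 5.71 and 4.88 CPM in Control and 5.57 and 5.12 CPM in Mir182mTg. None of the 3 passed the test there, with log2 changes of 0.08 ± 0.07, 0.07 ± 0.13 and 0.00 ± 0.15 (adjusted p = 1 for each, edgeR).

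Ccl3 and Ccl4, inflammatory CC ligands that are neighbours on chromosome 11, fell with RANKL in both genotypes. Ccl3 had 96.9 and 68.9 CPM in WT basal, 12.9 and 11.1 CPM in WT RANKL, 65.2 and 50.3 CPM in Mir182ΔM/ΔM basal and 10.9 and 7.36 CPM in Mir182ΔM/ΔM RANKL. Some ligands differed between replicates in the same direction in 6 of 6 groups. Replicate 1 was at 0.695 to 0.952 times replicate 2 for Ccl4, 0.848 to 0.966 times for Cxcl10 and 1.03 to 1.11 times for Ccl9. Ccl3 was higher in replicate 1 than in replicate 2 in 6 of 6 groups, by 1.17 to 1.48 times. It fell with RANKL by 2.67 ± 0.23 in WT and by 2.55 ± 0.23 in Mir182ΔM/ΔM on the log2 scale (adjusted p = 5.2e-05 and 7.9e-05, limma), and the difference of the responses was 0.13 ± 0.32 (adjusted p = 0.82). That difference passed in 2 of 18 alternatives, with TMM factors and the replicate block (0.28, adjusted p = 0.028) and with edgeR on recovered reads and the block (0.29, adjusted p = 0.029), and not with the block alone (adjusted p = 0.28). Between genotypes the differences were -0.50 ± 0.23 in the basal state and -0.38 ± 0.23 with RANKL (adjusted p = 0.34 and 0.22). With the replicate block both passed as lower in Mir182ΔM/ΔM (adjusted p = 1.1e-05 and 7.1e-05), and 49.7% of all genes were lower with RANKL under that block. In GENCODE vM21 no other gene overlaps Ccl3 or Ccl4. Gm17268 overlaps Ccl2 on the other strand there, and its level was not checked. Gene spans can differ in another annotation, and the assignment of reads between Ccl3 and Ccl4 was not tested.

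Ccl4 had 28.2 and 31.3 CPM in WT basal, 2.08 and 2.99 CPM in WT RANKL, 29.7 and 31.2 CPM in Mir182ΔM/ΔM basal and 5.25 and 5.59 CPM in Mir182ΔM/ΔM RANKL. The basal genotypes overlapped (log2 0.04 ± 0.13, adjusted p = 0.96), and the RANKL groups did not. It fell with RANKL by 3.13 ± 0.14 in WT and by 2.29 ± 0.14 in Mir182ΔM/ΔM (adjusted p = 1.9e-06 and 1.0e-05, limma), to a level 2.14-fold higher in Mir182ΔM/ΔM (0.87 ± 0.13, adjusted p = 0.0018). The responses differed by 0.84 ± 0.19 (adjusted p = 0.018). This difference did not pass without WT basal replicate 2, Mir182ΔM/ΔM basal replicate 1 or Mir182ΔM/ΔM RANKL replicate 2 (adjusted p between 0.062 and 0.063). In Control, Ccl3 had 45.8 and 33.9 CPM and Ccl4 had 23.9 and 31.1 CPM. In Mir182mTg, Ccl3 had 47.8 and 34.4 CPM and Ccl4 had 23.5 and 27.4 CPM, both overlapping Control.

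Ccl6 and Ccl9, ligands of Ccr1 found in mice, were abundant in all groups and moved in opposite directions with RANKL. Ccl6 had 347 and 345 CPM in WT basal, 48.5 and 50.8 CPM in WT RANKL, 213 and 207 CPM in Mir182ΔM/ΔM basal and 81.1 and 83.9 CPM in Mir182ΔM/ΔM RANKL. The replicates lay close together and no 2 of these groups overlapped. It fell 6.97-fold with RANKL in WT (log2 -2.78 ± 0.06, adjusted p = 1.3e-07, limma) and 2.54-fold in Mir182ΔM/ΔM (-1.33 ± 0.06, adjusted p = 2.8e-06), a difference of 1.44 ± 0.08 (adjusted p = 7.5e-05). It was lower in Mir182ΔM/ΔM than in WT in the basal state (-0.72 ± 0.06, adjusted p = 0.0017) and higher with RANKL (0.72 ± 0.06, adjusted p = 8.9e-05). Control had 99.3 and 102 CPM and Mir182mTg 103 and 101 CPM. E230016K23Rik, which overlaps Ccl6 on the other strand, had at most 33 reads in any library.

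Ccl9 had 966 and 869 CPM in WT basal, 1525 and 1431 CPM in WT RANKL, 749 and 707 CPM in Mir182ΔM/ΔM basal and 899 and 875 CPM in Mir182ΔM/ΔM RANKL. WT RANKL was highest, and WT basal and Mir182ΔM/ΔM RANKL overlapped. It rose 1.61-fold with RANKL in WT (log2 0.69 ± 0.07, adjusted p = 1.8e-04, limma) and 1.22-fold in Mir182ΔM/ΔM (0.29 ± 0.07, adjusted p = 0.014). The call in Mir182ΔM/ΔM was lost without Mir182ΔM/ΔM basal replicate 2 or Mir182ΔM/ΔM RANKL replicate 1 (adjusted p = 0.087 and 0.068) and with quantile normalization (adjusted p = 0.056). With RANKL it was lower in Mir182ΔM/ΔM than in WT (-0.73 ± 0.07, adjusted p = 2.5e-04). In the basal state the difference was -0.33 ± 0.07 (adjusted p = 0.063), which passed with the replicate block (adjusted p = 1.8e-08) and with TMM factors (adjusted p = 0.048). The responses differed by -0.40 ± 0.11 (adjusted p = 0.032), a call that was lost when any 1 library other than WT basal replicate 1 was left out (adjusted p between 0.055 and 0.11). Control had 798 and 767 CPM and Mir182mTg 798 and 723 CPM, which overlap.

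Cxcl14, a CXC chemokine, was the single ligand of the 10 that passed the test in both experiments. It had 143 and 139 CPM in Control and 64.2 and 63.3 CPM in Mir182mTg, 141 ± 2.25 and 63.8 ± 0.61 CPM (SD, n = 2). It was 2.21-fold lower in Mir182mTg (log2 -1.16 ± 0.07, adjusted p = 0.020, edgeR), with a ratio of 0.450 within replicate 1 and 0.454 within replicate 2. It passed in all 8 alternatives run for this comparison, with adjusted p between 5.1e-17 and 0.019. In the loss of function experiment it had 13.2 and 10.9 CPM in WT basal, 7.10 and 8.85 CPM in WT RANKL, 18.8 and 17.3 CPM in Mir182ΔM/ΔM basal and 32.3 and 26.9 CPM in Mir182ΔM/ΔM RANKL. The 4 groups did not overlap, and all were below Mir182mTg. With RANKL it was 3.71-fold higher in Mir182ΔM/ΔM than in WT (1.77 ± 0.15, adjusted p = 9.5e-05, limma). In the basal state the difference was 0.55 ± 0.15 (adjusted p = 0.11), which passed as higher in Mir182ΔM/ΔM with the replicate block (adjusted p = 2.8e-04). With RANKL it rose in Mir182ΔM/ΔM (0.68 ± 0.15, adjusted p = 0.0060) and fell in WT by 0.54 ± 0.15 (adjusted p = 0.015), and the responses differed by 1.22 ± 0.21 (adjusted p = 0.0054). The fall in WT was lost without WT basal replicate 1 (adjusted p = 0.083) or WT RANKL replicate 1 (adjusted p = 0.086). Neutrophil markers were higher in Mir182mTg than in Control, as given above.

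The order of the 6 levels differed between ligands. Ccl2 and Ccl7 were highest in Mir182mTg and Control and lowest in WT RANKL, and for Ccl7 the Mir182mTg and Control values overlapped. Ccl3 and Ccl6 were highest in WT basal, and Ccl4 had 4 basal groups whose neighbours overlapped, all above the RANKL groups. Ccl5, Ccl12 and Cxcl10 were highest in Mir182ΔM/ΔM RANKL. The highest group exceeded the lowest 80.2-fold for Cxcl10, 32.9-fold for Ccl5 and 2.03-fold for Ccl9.

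The comparisons that need no WT RANKL library were also fitted without these libraries. Without both WT RANKL libraries, an alternative chosen after seeing the data, 9 of 10 ligands passed in Mir182ΔM/ΔM RANKL against Mir182ΔM/ΔM basal, where 55.5% of all genes tested did (6489 genes), and 5 of 10 in Mir182ΔM/ΔM basal against WT basal, where 2.45% did (286 genes). These are the counts of the full fit. The changes in WT with RANKL, the genotype difference with RANKL and the difference of the responses have no value without them.

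The other chemokine ligands of a list of the family were mostly below the filter: 11 of 27 were tested. Ccl8, Cxcl9, Cxcl11 and Cxcl12 reached 1 CPM only in Mir182ΔM/ΔM RANKL libraries, Ccl22 only in RANKL libraries and Cxcl2 only in basal libraries. They entered the tests through the groups where they were high. The counts and the median of this list are therefore a description only. In Mir182ΔM/ΔM RANKL against Mir182ΔM/ΔM basal 6 were higher and 3 lower, beside 30.4% and 26.4% of all genes. In WT RANKL against WT basal 2 were higher and 4 lower, beside 40.6% and 22% of all genes. Cxcl11 and Cxcl9, like Cxcl10 ligands of Cxcr3, had 10.1 and 11.1 CPM and 11.8 and 8.89 CPM in Mir182ΔM/ΔM RANKL, and each had below 1 CPM in every other library. With RANKL in Mir182ΔM/ΔM they rose by log2(CPM + 1) changes of 3.48 ± 0.10 and 2.82 ± 0.14 (adjusted p = 4.7e-07 and 4.7e-06, limma). Cxcl16, a ligand of Cxcr6, rose in both genotypes, by 1.45 ± 0.06 in WT and 2.65 ± 0.06 in Mir182ΔM/ΔM (adjusted p = 2.0e-06 and 2.6e-07). Pf4, a platelet and macrophage chemokine, fell in both genotypes, in WT by 2.60 ± 0.11 and in Mir182ΔM/ΔM by 2.17 ± 0.11 (adjusted p = 1.6e-06 and 4.9e-06). In Mir182ΔM/ΔM RANKL against WT RANKL 5 were higher and 1 lower, beside 14.3% and 30.9% of all genes, with a median of 0.40 over the 11. In the basal state 0 of the 11 passed between genotypes, and 0 of 11 in Mir182mTg against Control.

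Receptors of these ligands moved in their own way. Ccr2 fell in Mir182ΔM/ΔM with RANKL, from 64.9 and 64.3 CPM to 7.36 and 7.59 CPM, and was lower in Mir182mTg (119 CPM in both replicates) than in Control (238 and 227 CPM, adjusted p = 0.021, edgeR). Ccr1 rose in WT with RANKL, from 22.5 and 20.2 CPM to 189 and 190.4 CPM, and had 28.5 and 30.3 CPM in Mir182ΔM/ΔM RANKL.

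**Figure D4:**
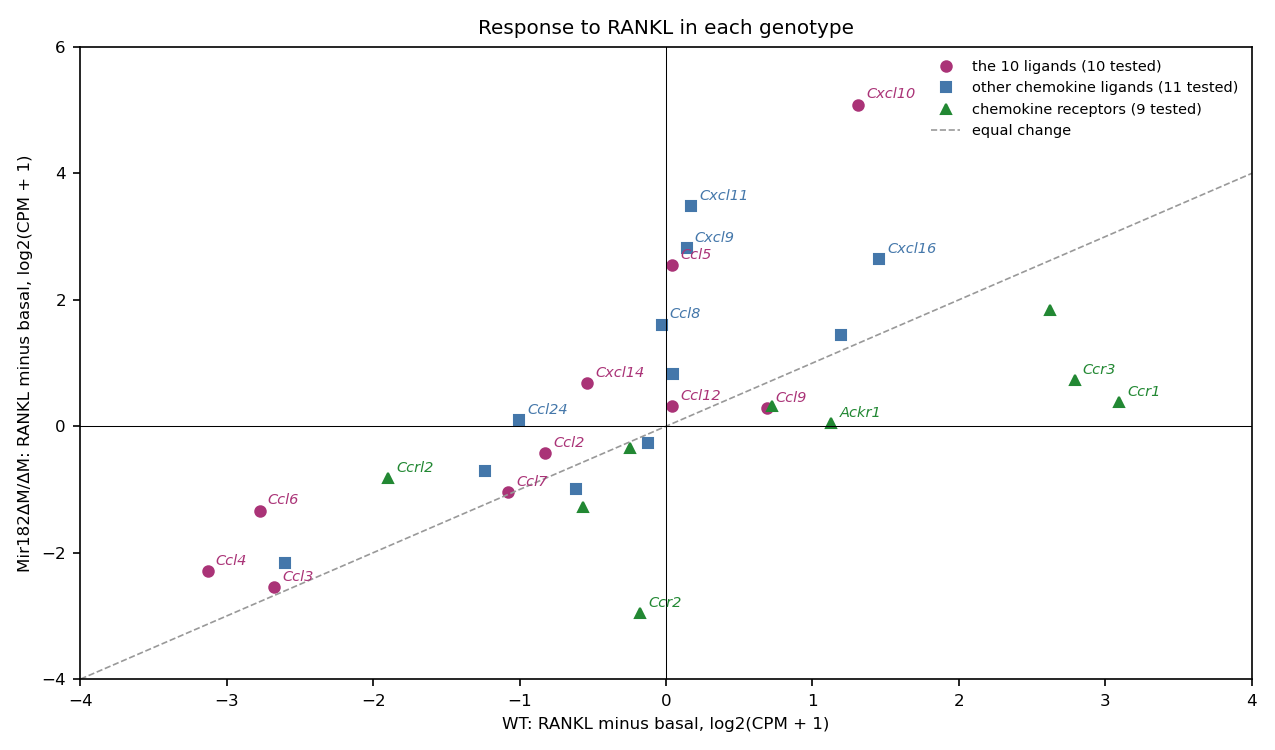
Change with RANKL on the log2(CPM + 1) scale in WT (horizontal) and in Mir182ΔM/ΔM (vertical), for the 10 ligands, 11 other chemokine ligands and 9 receptors. Points on the dashed line changed equally. Cxcl10 (1.31 and 5.09) and Ccl5 (0.04 and 2.55) lie far above it with Cxcl9 and Cxcl11, and Ccr1 (3.09 and 0.38) and Ccr2 (-0.18 and -2.95) far below.

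Lists of response genes were read beside the ligands. These lists were chosen with earlier results of these data known, so their counts are a description and not independent support. All 15 interferon response genes were tested. In Mir182ΔM/ΔM with RANKL 15 of 15 were higher (median log2 change 1.21), beside 30.4% of all genes. In WT 0 were higher, beside 40.6% of all genes, and 10 lower, beside 22% (median -0.58). Irf7, a transcription factor of the interferon response, had 147 and 156 CPM in Mir182ΔM/ΔM basal and 1297 and 1355 CPM in Mir182ΔM/ΔM RANKL, beside 47.7 and 49.7 CPM in WT RANKL. In the basal state 11 of 15 were higher in Mir182ΔM/ΔM than in WT, beside 2.71% of all genes, for example Mx1, an antiviral GTPase, at 57.1 ± 5.04 and 16.9 ± 1.16 CPM. The transcript of interferon beta, Ifnb1, had at most 5 reads in any library. Of 10 NF-kB response genes 7 were tested, and 6 were higher and 1 lower with RANKL in each genotype. Beside them 40.6% and 22% of all genes were in WT and 30.4% and 26.4% in Mir182ΔM/ΔM. In the basal state 0 of the 7 were higher and 4 lower in Mir182ΔM/ΔM than in WT, beside 2.71% and 1.1% of all genes. Between genotypes with RANKL 2 were higher and 3 lower, beside 14.3% and 30.9%. Nfkb2, an NF-kB subunit, rose from 70.6 and 74.4 CPM to 405 and 428 CPM in WT, and from 58.4 and 57.8 CPM to 350.0 and 350.1 CPM in Mir182ΔM/ΔM.

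The genes whose pattern over the 8 loss of function libraries was nearest to a ligand were found by the root mean square difference of centred log2(CPM + 1), a description without a test. For Ccl5 these were Apol9b (0.151) and Cxcl9 (0.153), and for Cxcl10 they were Ppp2r1b (0.547) and Ly6a (0.590), all highest in Mir182ΔM/ΔM RANKL. The spread of Cxcl10 about its own mean was 2.36 on that scale and that of Ccl5 was 1.21. For Ccl3 the nearest were Etl4 (0.0647) and Smagp (0.102), for Ccl4 B430306N03Rik (0.201) and Nanos1 (0.216), and for Ccl6 Ralgps2 and Gchfr (0.225 each). For Ccl9 they were Pnrc1 (0.0614) and Oxa1l (0.0715), and for Cxcl14 Cdh5 (0.0836) and Rhov (0.119). Ccl2 and Ccl7 were each other's nearest ligand (0.264) and shared Rgs1 among their nearest genes, with Atp10a (0.238) for Ccl2 and Plau (0.305) for Ccl7. For Ccl12 they were Gda (0.238) and Znfx1 (0.253).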

How the data were processed

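RNA-seq values of 12 BMM libraries (6 groups, 2 replicates each) were analysed, and groups and replicate numbers were taken from the labels. The authors deposited CPM for WT and Mir182ΔM/ΔM cells and raw read counts per gene for Control and Mir182mTg cells. The replicate 1 files also hold RPKM deposited by the authors, used only to derive gene lengths. Per the labels, reads were aligned to mm10, with TopHat and Cufflinks named for replicate 1, and HISAT2, HTSeq and edgeR for replicate 2. The labels give the molecule as polyA RNA for replicate 1 and total RNA for replicate 2, although poly-A selection is stated in the protocols of either replicate. The strand setting of the counting was not given in the sources used here. All CPM values (100%) were whole multiples of 1 read within 0.1 read.

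CPM were tested with limma 3.58.1 (lmFit, eBayes with trend) on log2(CPM + 1), in 1 fit of 8 samples and 4 groups, keeping genes that reached 1 CPM in 2 or more of them. Fold changes on this scale understate the change of low genes. Counts were tested with edgeR 4.0.16 (TMM, filterByExpr, quasi-likelihood), with the SE as the absolute log2 fold change divided by the square root of F. P-values were adjusted by Benjamini-Hochberg over all genes of a comparison, and folds in words are ratios of mean CPM. Both tests were tried on simulated counts drawn independently for each library. That draw held no shift shared by replicate number, so it cannot check the tests against one. The replicate number pairs samples, since in the labels it goes with the RNA type and the tools, and the replicate ratios correlated across genes between groups (r between 0.69 and 0.754). That is across genes, which are not independent replicates. Replicate libraries differed beyond sampling noise (mean chi-square per gene 40.9 to 75.8). DESeq2 1.42.0 served as an alternative.

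The ligands and lists were chosen with earlier results of these data known. Named genes outside the 10 ligands follow a rule of the largest change among those that passed with at least 5 CPM in the higher group, at most 3 from each chemokine list and 2 from each response list, of which some are printed. Of the date-like gene names (27) none was used. Coordinates and 3′ UTRs are from GENCODE vM21 (GRCm38, the build also called mm10), counted from 1. One item is not reported here.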

Additional observations from a re-analysis of the deposited data

Results flagged for a closer look

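In 7 ligands the response to RANKL differed between Mir182ΔM/ΔM and WT cells by the interaction term of the limma fit. The difference, as Mir182ΔM/ΔM minus WT on the log2(CPM + 1) scale, was 3.78 for Cxcl10, 2.51 for Ccl5, 1.44 for Ccl6, 1.22 for Cxcl14 and 0.84 for Ccl4. It was 0.41 for Ccl2 and -0.40 for Ccl9, the 2 whose calls were lost in most fits with 1 library left out. All 7 values use the WT RANKL libraries, whose Lyz2 and Ifi202b levels set them apart from WT basal, and the part of that difference was not tested.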

How the results depend on the processing

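The 6 comparisons of the 10 ligands were recomputed in 8 to 21 alternatives each, 1060 values in all. Of these 965 kept their direction and their side of the threshold, 30 lost the call, 30 gained it and 0 reversed with a call in either fit. In 35 the sign changed with no call in either. With 1 library left out, Cxcl10 changed by 5.04 to 5.14 in Mir182ΔM/ΔM RANKL against Mir182ΔM/ΔM basal. Cxcl14 changed by -1.17 to -1.14 in Mir182mTg against Control. The difference of the responses ranged from 0.33 to 0.48 for Ccl2 and from -0.48 to -0.33 for Ccl9. Some small changes took either sign, such as Ccl5 (-0.09 to 0.18) and Ccl12 (-0.20 to 0.28) in WT RANKL against WT basal. In such fits the lone sample of a group is assumed to vary like the others.

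For Mir182ΔM/ΔM basal against WT basal the 5 ligands called became 9 with the replicate block, 9 with TMM factors and the block, 8 with edgeR on recovered reads and the block, and 9 without both WT RANKL libraries and with the block, the last chosen after seeing the data. The block added Ccl3, Ccl5, Ccl9 and Cxcl14 there, Ccl12 in Mir182ΔM/ΔM RANKL against Mir182ΔM/ΔM basal and Ccl3 in Mir182ΔM/ΔM RANKL against WT RANKL, and with the other settings unchanged it altered no other ligand call. Together with TMM factors, or in edgeR on recovered reads, it also added Ccl3 in the difference of the responses. Over all genes the block moved the calls from 446 to 3651 for Mir182ΔM/ΔM basal against WT basal, from 5275 to 8555 for Mir182ΔM/ΔM RANKL against WT RANKL, from 2875 to 6889 for the difference of the responses and from 31 to 1822 for Mir182mTg against Control. With TMM factors and the block the first 3 counts were 3649, 8109 and 6064, and with edgeR on recovered reads and the block 3682, 8153 and 5838. The count for Mir182mTg against Control was 130 with DESeq2, 141 without a filter and between 55 and 166 with 1 library left out. The 446 calls became 107 with the 4 samples of that comparison alone, 286 without both WT RANKL libraries (3398 with the block as well), and between 102 and 282 with 1 library left out. The test of edgeR on recovered reads called 6917 genes beside 7312 by limma in WT RANKL against WT basal, 6647 beside 6636 in Mir182ΔM/ΔM RANKL against Mir182ΔM/ΔM basal, 420 beside 446 in Mir182ΔM/ΔM basal against WT basal, 4751 beside 5275 in Mir182ΔM/ΔM RANKL against WT RANKL and 2258 beside 2875 in the difference of the responses. TMM factors over 12 libraries changed the 60 levels by 0.919 to 1.06 times, and their median from 28.5 to 28.6 CPM. The cause of these changes was not tested. Depth limits Ccl5 in Control and Mir182mTg most, where each library had at most 23 reads of it.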
